A study of Homo sapiens with 12 samples.

Results

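The RNA levels of 10 nuclear genes that encode chaperones and proteases of the mitochondrion were examined in human 293T cells. One group of cells received DMSO and another received doxycycline, which induces 4EBP1-4A. The genes were taken as a list from the mitochondrial unfolded protein response: the chaperone genes HSPD1, HSPE1 and HSPA9, and the protease genes LONP1, CLPP, CLPX, YME1L1, AFG3L2, SPG7 and HTRA2. The rule names the genes and uses no measured value, though it was written with earlier results of these data known, and all 10 were found among the 58735 genes of the count table. After doxycycline the mean RNA-seq level of the 3 chaperone genes and of YME1L1 was lower, down to 0.770 of the DMSO level for HSPE1, and that of the other 6 protease genes was higher, up to 1.43-fold for SPG7. None of the 10 passed the test with all 6 RNA-seq libraries, where 0% of all genes tested passed. SPG7 passed it, as higher, once 1 library that stood apart was left out, where 7.05% of all genes passed. The SPG7 call was lost in 5 of 15 alternative settings, with an offset for GC content and length or when 1 of several further libraries was left out.

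Most mitochondrial proteins are made in the cytosol and imported unfolded, so the organelle keeps its own folding and degradation machinery. HSPA9 (mortalin) pulls incoming chains through the inner membrane, HSPD1 (HSP60) and its lid HSPE1 (HSP10) fold them in a closed chamber, and LONP1 and the CLPX-CLPP pair degrade damaged proteins in the matrix. YME1L1 and the AFG3L2-SPG7 complex are ATP-driven metalloproteases of the inner membrane, and HTRA2 is a serine protease of the intermembrane space. When unfolded protein builds up in mitochondria, cells can raise the transcription of several of these genes, which is called the mitochondrial unfolded protein response.

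293T is a cell line derived from human embryonic kidney. The cells carried a lentiviral construct for 4EBP1-4A, a form of the eIF4E-binding protein 4EBP1 in which 4 phosphorylation sites are alanine. eIF4E binds the cap of mRNAs to start translation, and 4EBP1 blocks it while unphosphorylated. The transduced cells were sorted by GFP, and whether they came from 1 clone is not given in the sources used here.

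Both groups were cells of this line and both received cycloheximide for 10 min before lysis. The control group received DMSO, and the other group received doxycycline at 2 mg/ml as the labels print it, for 12 h by the treatment protocol, 2 h by the series text and a longer time by the study's own account of its results. There were 3 RNA-seq and 3 Ribo-seq libraries in each group. Doxycycline itself binds bacterial ribosomes and is known to inhibit translation on mitochondrial ribosomes. No group received doxycycline without the construct, so an effect of the drug and an effect of 4EBP1-4A cannot be told apart. The study calls the 3 samples of a group biological replicates, and how they were cultured apart is not given in the sources used here.

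Reads on genes numbered 21687906 to 57824136 per RNA-seq library and 210186 to 1002424 per Ribo-seq library. Reads on EIF4EBP1, which encodes 4EBP1 and whose count cannot separate the endogenous from the introduced copy, were 8501, 8244 and 8252 in the DMSO libraries and 12216, 13028 and 6778 in the doxycycline libraries, or 158.5 ± 8.30 against 273.9 ± 14.3 CPM (reads scaled to the library's reads on genes and its TMM factor; SD, n = 3). All doxycycline libraries were above all DMSO libraries, and the log2 fold change of EIF4EBP1 was 0.79 (SE 0.093, adjusted p = 0.303, edgeR), or 0.76 (SE 0.065, adjusted p = 1.08e-05) without doxycycline replicate 3. That replicate stood apart from the other RNA-seq libraries: it had the fewest reads on genes, 88.4% of its reads were not uniquely aligned against 54.9 to 69.9% elsewhere, and its Pearson correlation with the others was 0.968 to 0.984 where all other pairs reached 0.995 to 0.998. The changes of the 10 genes are therefore given with all 6 libraries and with 5, without this one. All 8 markers chosen for the 293T line were above 1 CPM in every library. Of the markers of other cells, those of blood summed to at most 0.252 CPM. Those of skin summed to 2.48 to 5.69 CPM, with KRT1, KRT2, KRT5 and KRT14 at 3 reads or fewer, and those of fibroblasts to 10.6 to 13.1 CPM under DMSO and 13.1 to 29.6 CPM under doxycycline, with COL1A2 at 3 reads or fewer. Their part in the results was not tested.

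HSPD1 and HSPE1, whose products form the chamber and its lid, lie head to head on chromosome 2, and between their RefSeq start sites are 104 bases (chr2:197500275-197500378, GRCh38, plus strand, 74.0% GC). The stretch is shown because both genes can be read from it, with HSPE1 starting to its right and HSPD1 to its left. Capitals mark an E-box (CACGTG, the same on both strands), a motif that helix-loop-helix factors such as MYC bind.

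HSPD1-HSPE1 intergenic: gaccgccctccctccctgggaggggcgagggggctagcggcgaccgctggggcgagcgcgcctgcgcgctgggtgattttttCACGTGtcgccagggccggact

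Promoter windows of 300 bases, 250 before to 50 after a RefSeq start, were at hand for 8 of the 10 genes, all but CLPP and YME1L1, in 12 windows. The E-box was in 4 of them, at HSPD1, HSPE1, HSPA9 and LONP1, and in 7.26% of all 35116 promoter windows of the table. Counted from the start site, it began at -88 for HSPD1, -22 for HSPE1, -19 for HSPA9 and at -212 and -49 for LONP1. The windows of HSPD1 and HSPE1 overlap and hold the same E-box, the one printed, so the 4 windows rest on 3 separate stretches. The core of the CHOP and ATF4 composite site (TTGCATCA) was in none of the 12 windows and in 0.866% of all. The heat shock core (GAANNTTC) was in 1 window of HSPD1 and in 6.77% of all, and the core of the NRF1 site (CGCATGCG) was in 1 window of LONP1 and in 2.02% of all. Both strands were searched for each motif. A match is a description of the letters only, and binding was not measured.

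The 3 metalloproteases YME1L1, AFG3L2 and SPG7 share a zinc-binding site with the residues His-Glu-any-any-His, and 60 coding bases around it are shown for each because they differ in base composition around a shared site. Capitals mark the codons of the site, at residues 542 to 546 of YME1L1 and 574 to 578 of both AFG3L2 and SPG7. The stretches lie within 1 exon each, at chr10:27117633-27117692 (minus strand), chr18:12344153-12344212 (minus strand) and chr16:89550529-89550588 (plus strand) of GRCh38.

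YME1L1: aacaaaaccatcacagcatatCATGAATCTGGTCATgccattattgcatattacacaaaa
AFG3L2: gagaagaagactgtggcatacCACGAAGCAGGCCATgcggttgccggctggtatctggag
SPG7: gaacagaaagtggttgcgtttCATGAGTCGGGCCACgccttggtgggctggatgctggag

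The YME1L1 stretch was 33.3% GC and the other 2 were 58.3%. Of their 20 codons each, 5 ended in G or C in YME1L1, 13 in AFG3L2 and 15 in SPG7. Over the whole proteins, AFG3L2 and SPG7 were identical at 45.9% of 741 aligned residues, against 38.1% of 657 for AFG3L2 and YME1L1 and 35.9% of 666 for SPG7 and YME1L1. The base composition of the 10 genes is taken up again with the changes, since it moved with them.

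In the DMSO group the chaperone genes HSPD1 and HSPA9 led the list, and the third chaperone gene, HSPE1, came after 3 proteases. Levels between genes were compared per length, as CPM per kilobase of the canonical transcript (RPKM), over the 3 DMSO libraries. HSPD1 stood at 231.3 ± 5.13 RPKM (SD, n = 3), above 99.3% of the 20396 tested genes with a known length, and HSPA9 followed at 113.4 ± 5.87. The matrix protease LONP1 had 67.9 ± 5.14 RPKM. YME1L1 at 58.2 ± 2.89 and SPG7 at 57.6 ± 4.06 overlapped and could not be ordered, and the highest SPG7 library, at 62.2, was also above the lowest LONP1 library, at 62.0. The other neighbours in the order were free of overlap between the libraries. HSPE1 had 45.0 ± 4.71 RPKM, AFG3L2 36.1 ± 0.118, HTRA2 23.4 (22.5 to 24.5 over its libraries), CLPP 21.2 ± 0.191 and CLPX, the unfoldase that feeds CLPP, 10.7 ± 0.379, which was still above 67.5% of genes.

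This order depends on the length chosen. GENCODE lists 35761 exon bases for SPG7 against 3076 in its canonical transcript, and per exon base of all transcripts SPG7 fell from rank 5 to rank 10. HSPE1 rose to 68.7 RPKM when 192 of its 557 canonical bases, which the read-through gene HSPE1-MOB4 also holds, were left out. HSPE1-MOB4 itself had 0 reads in all libraries. Reads that fit several genes were set aside as ambiguous, so this count does not show that the read-through is silent. How many reads HSPE1 lost in this way is not known. HTRA2 shares 32.3% of its exon bases with LOXL3 and AUP1 on the opposite strand, AFG3L2 11.7% with TUBB6, YME1L1 6.04% with MASTL and HSPE1 7.41% with HSPD1, and whether counting used the strand is not given in the sources used here. Reads also fell on pseudogenes, matched to the genes by symbol. There were 478 reads on 26 pseudogenes of HSPE1, which is 6.93% of the reads of HSPE1 and these together. HSPD1 had 1358 on 18 pseudogenes (0.984%) and HSPA9 125 on one (0.0962%). AFG3L1P, whose symbol names AFG3L1 and not AFG3L2, was set beside AFG3L2 by choice. It had 13700 reads, or 29.4% of its reads and those of AFG3L2 together. Whether any of these reads came from the genes themselves was not tested. Values of HSPE1, HTRA2 and AFG3L2 are uncertain where bases are shared. The lengths and shared bases are those of GENCODE release 44 on GRCh38. The labels name GRCh37 and Ensembl release 75 for the counts, so the exons that were counted may differ.

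The first comparison asked whether the RNA of the chaperone genes changed with doxycycline. All 3 had a lower mean after doxycycline, and none passed the test. Each change is a log2 fold change of doxycycline over DMSO from the quasi-likelihood test of edgeR, adjusted by Benjamini-Hochberg over all genes that had 10 or more reads in 3 or more libraries. At an adjusted p under 0.05, that test called 0% of 20552 genes with 6 libraries and 7.05% of 20459 genes with 5, 769 higher and 673 lower. With 6 libraries 2189 genes were higher and 884 lower at an unadjusted p under 0.05, and of the 10 genes this held for SPG7 alone. DESeq2's Wald test over 6 libraries called 3 genes in all and none of the 10.

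HSPD1 had 528.2, 506.2 and 523.2 CPM in the DMSO libraries and 493.5, 482.1 and 367.2 CPM in the doxycycline libraries. All doxycycline libraries lay below all DMSO libraries, with replicate 3 the lowest by far. The log2 fold change was -0.21 (SE 0.126, adjusted p = 0.326, edgeR) over 6 libraries and -0.090 (SE 0.060, adjusted p = 0.361) over 5.

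HSPE1, the lid of the HSPD1 chamber, had 27.9, 22.7 and 24.7 CPM under DMSO and 23.7, 22.9 and 10.9 CPM under doxycycline. The first 2 doxycycline libraries lay among the DMSO libraries and replicate 3, with 260 reads, lay below them all. The log2 fold change was -0.38 (SE 0.274, adjusted p = 0.392, edgeR), the widest error of the 10 genes, and -0.10 (SE 0.089, adjusted p = 0.496) over 5 libraries.

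HSPA9, the import motor and matrix Hsp70, had 528.0, 477.8 and 492.0 CPM under DMSO and 464.9, 448.3 and 329.7 CPM under doxycycline. The groups did not overlap, and replicate 3 was again the lowest. Its log2 fold change was -0.27 (SE 0.141, adjusted p = 0.306, edgeR) over 6 libraries and -0.13 (SE 0.063, adjusted p = 0.208) over 5.

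**Figure D1:**
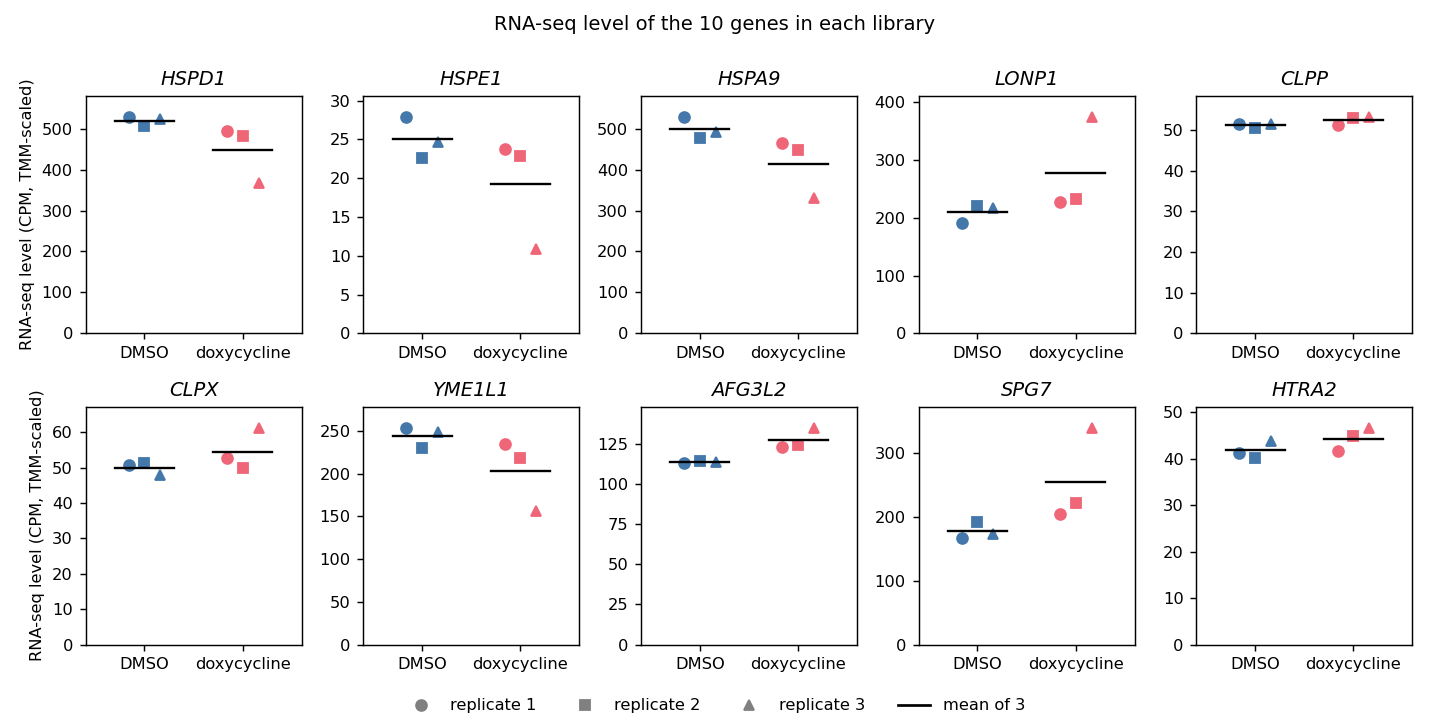
RNA-seq level of each of the 10 genes in CPM scaled by TMM (vertical axis, from 0) in 3 DMSO libraries (blue) and 3 doxycycline libraries (red), with marker shape for the replicate and a black line at the mean of 3. Doxycycline replicate 3 is the lowest point for HSPD1, HSPE1, HSPA9 and YME1L1 and the highest for LONP1, SPG7, CLPX, AFG3L2, HTRA2 and CLPP.

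The second comparison concerned the proteases. SPG7, LONP1 and AFG3L2 were higher in every doxycycline library than in any DMSO library, and SPG7 was the only one of the 10 genes that passed the test, in the 5 libraries. YME1L1 had a lower mean, and CLPP, CLPX and HTRA2 overlapped between the groups.

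SPG7, the paraplegin subunit of the inner membrane protease, had 167.3, 191.3 and 173.1 CPM under DMSO and 203.5, 220.8 and 338.0 CPM under doxycycline. Replicate 3 was the highest by far, and the other 2 doxycycline libraries were also above all DMSO libraries. The log2 fold change was 0.52 (SE 0.194, 95% interval 0.067 to 0.97, unadjusted p = 0.0298, adjusted p = 0.303, edgeR) over 6 libraries. Over 5 libraries it was 0.26 (SE 0.069, 95% interval 0.12 to 0.40, adjusted p = 0.0325), a 1.20-fold higher level. This call was lost in 5 of 15 alternative settings. It was lost, with adjusted p of 0.0993 and 0.0901 by edgeR, when DMSO replicate 1 or DMSO replicate 3 was also left out. Leaving out doxycycline replicate 2, which left 1 doxycycline library, also lost it. So did the offset for GC content and length, with and without a replicate block. Changes of scaling, read minimum or test and the replicate block alone kept it. Their adjusted p ran from 0.0020 by edgeR with the block to 0.0389 by edgeR at a minimum of 60 reads.

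AFG3L2, which forms a ring of its own or together with SPG7, had 113.6, 114.3 and 113.9 CPM under DMSO and 123.6, 124.8 and 135.0 CPM under doxycycline. The DMSO libraries hardly differed from each other, and all 3 doxycycline libraries were above them. Its log2 fold change was 0.17 (SE 0.089, adjusted p = 0.309, edgeR) over 6 libraries and 0.12 (SE 0.060, adjusted p = 0.200) over 5.

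LONP1, the main ATP-driven protease of the matrix, had 191.7, 221.1 and 217.0 CPM under DMSO and 227.4, 231.8 and 374.0 CPM under doxycycline. The groups did not overlap, but the first 2 doxycycline libraries were close to the upper DMSO libraries and replicate 3 far above them. The log2 fold change was 0.40 (SE 0.200, adjusted p = 0.303, edgeR) over 6 libraries and 0.13 (SE 0.068, adjusted p = 0.241) over 5.

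YME1L1, the protease that faces the intermembrane space, had 252.9, 230.1 and 248.7 CPM under DMSO and 234.7, 218.0 and 156.8 CPM under doxycycline. Doxycycline replicate 1 lay among the DMSO libraries and the other 2 below them. Its log2 fold change was -0.26 (SE 0.155, adjusted p = 0.326, edgeR), and -0.11 (SE 0.065, adjusted p = 0.314) over 5 libraries.

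CLPP, the proteolytic chamber, ranged from 50.6 to 51.4 CPM under DMSO and from 51.1 to 53.1 CPM under doxycycline. CLPX ranged from 48.0 to 51.4 and from 49.8 to 61.1 CPM. HTRA2 ranged from 40.2 to 43.7 and from 41.6 to 46.5 CPM. These 3 had log2 fold changes of 0.035, 0.12 and 0.086 over 6 libraries, with 95% intervals of -0.18 to 0.24, -0.14 to 0.38 and -0.15 to 0.32, and 0.024, 0.034 and 0.050 over 5. On simulated counts the 6-library test recovered 12 of 200 genes changed by 1.5-fold, so across genes most changes of that size were not called. The intervals of CLPP, CLPX and HTRA2 lie within a 1.5-fold change in either direction.

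Across the 10 genes, 3 were above and 2 were below in every doxycycline library, and the other 5 overlapped. Groups did not overlap for 38.6% of all genes tested, 19.7% above and 18.9% below, against 5 of 10 here. With 5 libraries the same 5 genes were free of overlap, against 43.4% of all genes. The median log2 fold change of the 10 genes was 0.060 over 6 libraries and 0.029 over 5, and that of all genes 0.0029 and -0.00057. Regardless of sign, the median change was 0.24 for the 10 genes and 0.27 for all genes over 6 libraries, and 0.11 and 0.15 over 5. Limma voom with a quality weight per library, which gave replicate 3 a weight of 0.083 and doxycycline replicate 2 a weight of 5.03, called 4 of the 10 genes over 6 libraries and 36.7% of all genes. These were HSPA9 and YME1L1 as lower (log2 fold changes -0.14 and -0.15, adjusted p = 0.0384 and 0.0401 by limma) and AFG3L2 and SPG7 as higher (0.13 and 0.31, adjusted p = 0.0365 and 0.0038).

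**Figure D2:**
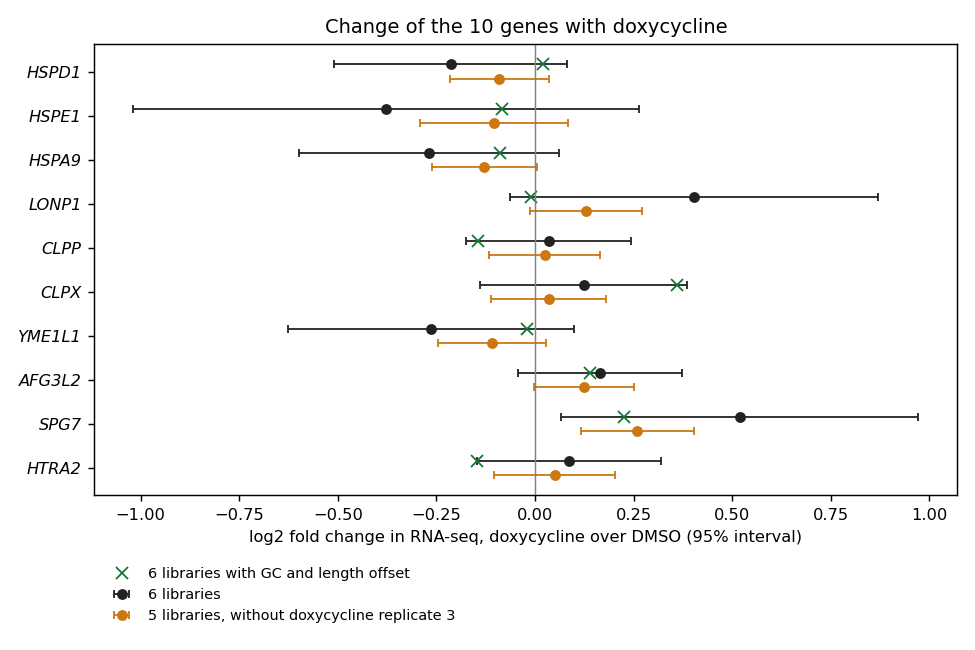
Log2 fold change of doxycycline over DMSO (horizontal axis) for each of the 10 genes over 6 libraries (black) and over 5 (orange), with 95% intervals from the edgeR fit, and over 6 libraries with an offset for GC content and length (green crosses). The interval of SPG7 lies above 0 in both fits, before adjustment, and the crosses of HSPD1, LONP1, CLPP and HTRA2 lie on the other side of 0 from the black points.

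Summed over genes, the means of the chaperones and the proteases differed in opposite directions. The 3 chaperones together had 1044 ± 38.8 CPM under DMSO and 881 ± 150.8 CPM under doxycycline (SD, n = 3). The 7 proteases had 888 ± 16.5 and 1014 ± 130.4 CPM, although YME1L1 among them went the other way, from a mean of 243.9 to 203.2 CPM. Without doxycycline replicate 3 the mean under doxycycline was 967.7 CPM for the chaperones and 938.8 CPM for the proteases. The sum of all 10 was 1931 ± 23.9 and 1895 ± 22.2 CPM. The share of the chaperones in the reads of the 10 genes was 55.5, 52.8 and 53.7% in the DMSO libraries and 51.2, 50.3 and 37.8% in the doxycycline libraries. Every doxycycline library was below every DMSO library, and most of the distance came from replicate 3. No test was run on these sums.

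The base composition of the transcripts moved with the changes. The canonical transcripts of HSPE1, YME1L1, CLPX, HSPD1 and HSPA9 were 39.3, 40.3, 41.3, 41.7 and 42.1% GC, and those of AFG3L2, CLPP, HTRA2, SPG7 and LONP1 were 49.1, 55.7, 57.9, 58.3 and 62.6% GC. The 4 genes with a lower mean after doxycycline were all in the first set, with CLPX the exception there, and all 5 genes of the second set had a higher mean. Across the 10 genes, Pearson's r of GC content with the log2 fold change was 0.82 over 6 libraries and 0.78 over 5. Across all tested genes with a GC value it was 0.62 (n = 20396) and 0.46 (n = 20305). The points of each correlation share the same libraries, and genes are not independent replicates. The median log2 fold change of all genes went from -0.34 in the 4080 genes lowest in GC to 0.38 in the 4079 highest in GC over 6 libraries, and from -0.17 to 0.17 over 5.

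**Figure D3:**
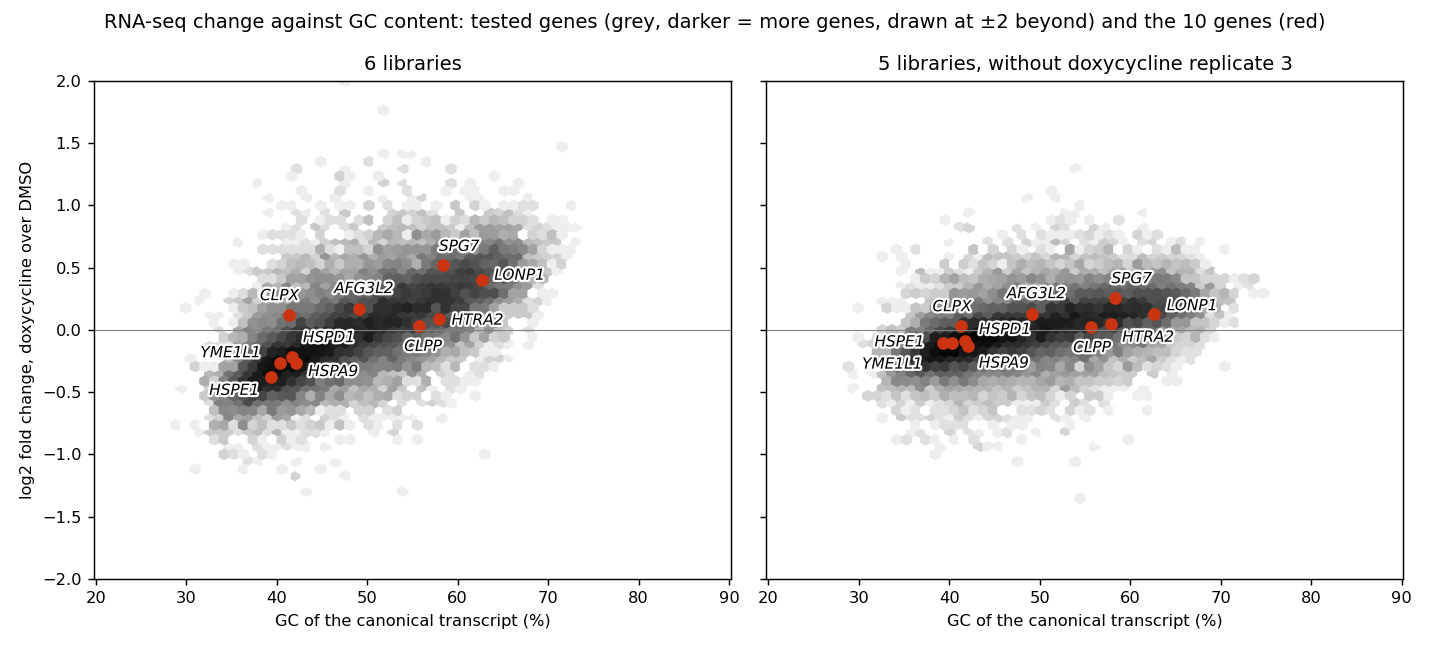
Log2 fold change of doxycycline over DMSO (vertical axis) against GC content of the canonical transcript in percent (horizontal axis) over 6 libraries (left) and over 5 (right), with all tested genes as grey hexagons on a log colour scale and the 10 genes as red points. The 10 genes lie along the rising band of all genes, with CLPX above its centre and CLPP and HTRA2 below its centre on the left.

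With an offset per gene and library for GC content and transcript length, an alternative chosen after seeing the data, several changes turned sign. Over 6 libraries HSPD1 went to 0.021, LONP1 to -0.010, CLPP to -0.15 and HTRA2 to -0.15 on the log2 scale. SPG7 and AFG3L2 kept a positive sign at 0.22 and 0.14, HSPA9 and HSPE1 a negative one at -0.088 and -0.083, CLPX moved to 0.36 and YME1L1 to -0.019, all with adjusted p of 0.32 or more by edgeR. Over 5 libraries SPG7 had 0.13 (adjusted p = 0.111, edgeR) and was no longer called, and YME1L1 and HSPE1 also turned, to 0.0047 and 0.055. Whether composition accounts for any change was not tested.

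Doxycycline replicate 3 was the most extreme doxycycline library for each of the 10 genes. Relative to the other 2 doxycycline libraries, its log2 level was -1.09 for HSPE1, -0.53 for YME1L1, -0.47 for HSPA9 and -0.41 for HSPD1. It was 0.70 for LONP1, 0.67 for SPG7 and 0.25 for CLPX, and between 0.031 and 0.12 for CLPP, HTRA2 and AFG3L2. The genes with the largest distances in each direction were thus among those lowest and highest in GC. For AFG3L2, CLPP and HTRA2 most of the 6-library log2 fold change remained without replicate 3. They had 0.12, 0.024 and 0.050 over 5 libraries against 0.17, 0.035 and 0.086 over 6.

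Genes whose products work as partners were compared within each library, as the ratio of their reads, which does not depend on scaling between libraries. In none of the 4 pairs compared were the groups free of overlap. The ratio of HSPD1 to HSPE1 was 19.0, 22.3 and 21.2 in the DMSO libraries and 20.8, 21.1 and 33.6 in the doxycycline libraries. Replicate 3 alone was outside the DMSO range. The difference in log2 ratio was 0.24 (exact permutation test, two-sided, p = 0.6, adjusted p = 0.6) and 0.0085 without replicate 3. With 3 libraries against 3, the smallest p this test allows is 0.1.

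The ratio of CLPX to CLPP was 0.988, 1.02 and 0.935 under DMSO and 1.03, 0.942 and 1.15 under doxycycline, a difference of 0.085 in log2 ratio (exact permutation p = 0.4, adjusted p = 0.533) and 0.011 without replicate 3. The ratio of AFG3L2 to SPG7 was 0.679, 0.598 and 0.658 under DMSO and 0.608, 0.565 and 0.399 under doxycycline, with doxycycline replicates 2 and 3 below all DMSO libraries. The log2 difference was -0.32 (exact permutation p = 0.2, adjusted p = 0.533) and -0.14 without replicate 3. HSPA9 to GRPEL1, its nucleotide exchange factor, stood at 8.33, 8.17 and 7.52 under DMSO and 7.55, 7.81 and 6.71 under doxycycline, a log2 difference of -0.12 (exact permutation p = 0.3, adjusted p = 0.533) and -0.059 without replicate 3.

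**Figure D4:**
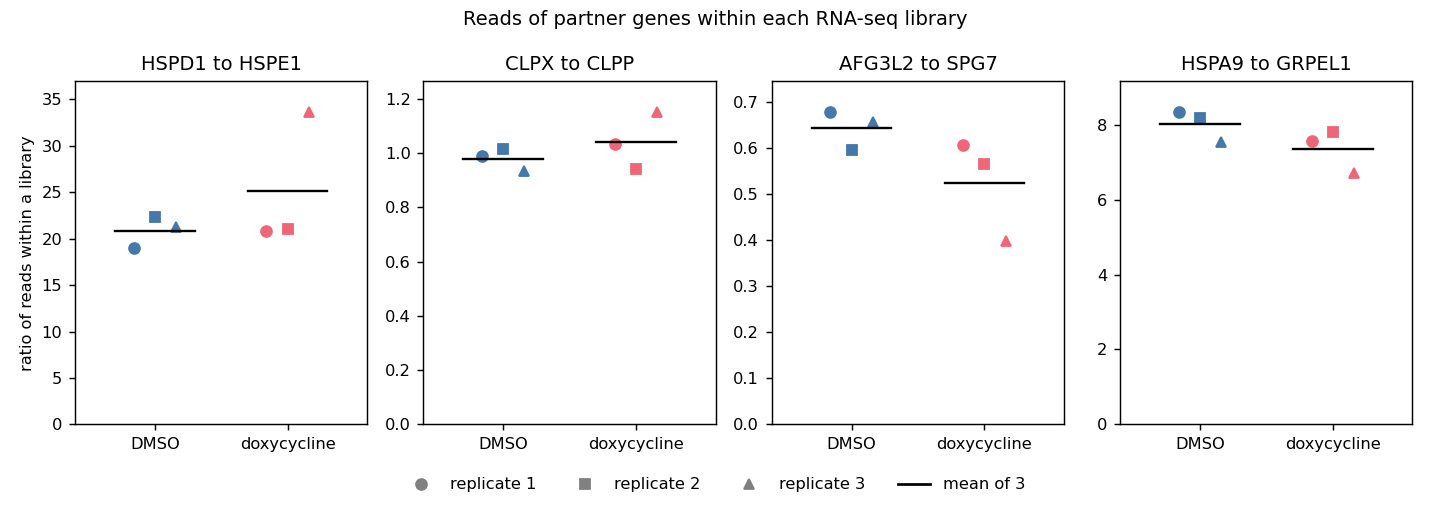
Ratio of RNA-seq reads of the first to the second gene of 4 pairs (vertical axes, from 0) in 3 DMSO (blue) and 3 doxycycline libraries (red), with marker shape for the replicate and a line at the mean of 3 ratios. The groups overlap in every pair, and replicate 3 of doxycycline is the farthest point in all 4.

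The genes around the 10 were taken as 6 lists with 73 genes, all tested. With 6 libraries edgeR called none, 8 were higher and 7 lower at an unadjusted p under 0.05, and 15 were above and 16 below in every doxycycline library. That is 31 of 73 without overlap, where all genes gave 38.6%. With 5 libraries, 5 were called higher and 7 lower, or 12 of 73, where all genes gave 7.05%. What each list does differently from all genes was not tested. Among 11 other mitochondrial chaperones and co-chaperones, 6 were above and 1 was below, with a median log2 fold change of 0.16 over 6 libraries and 0.079 over 5. The 3 called higher with 5 libraries were TRAP1, DNAJA3 and DNAJC11, the last 2 named after their values were seen. TRAP1, the mitochondrial Hsp90, had 286.3, 305.4 and 296.8 CPM under DMSO and 336.0, 368.5 and 445.0 CPM under doxycycline. Its log2 fold change was 0.37 over 6 libraries (SE 0.120, adjusted p = 0.303, edgeR) and 0.25 over 5 (adjusted p = 0.029). DNLZ, which assists HSPA9, had a log2 fold change of 0.42 (0.20 over 5 libraries) at under 1 CPM, and ATPAF1, an assembly factor of ATP synthase, one of -0.37 (-0.20 over 5), neither called in either fit.

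Among 13 other mitochondrial proteases and peptidases, 2 were above and 3 below, none was called, and the median was -0.099 over 6 libraries and 0.019 over 5. OMA1, a stress-activated protease of the inner membrane, had a log2 fold change of -0.52 over 6 libraries (SE 0.277) and -0.25 over 5. XPNPEP3, an aminopeptidase, had 0.38 (SE 0.207) and 0.092. The subunits of the presequence-cleaving peptidase differed in sign, with 0.15 for PMPCA (0.089 over 5 libraries) and -0.27 for PMPCB (-0.088 over 5), at 56.8% and 38.7% GC. Of 5 prohibitin and scaffold genes, STOML2, which holds YME1L1 in a complex, had 0.15 over 6 libraries and 0.11 over 5, and OPA1, a fusion protein that OMA1 and YME1L1 cleave, -0.31 and -0.14. The median of these 5 was 0.022 and 0.023, and none was called.

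The presequence translocase and import motor list had 14 genes, 4 above and 5 below, with a median of -0.064 over 6 libraries and -0.042 over 5. TOMM40, the pore of the outer membrane, had 111.0, 113.4 and 113.8 CPM under DMSO and 138.7, 156.9 and 217.3 CPM under doxycycline, and TOMM20, a receptor beside it, 432.0, 392.7 and 427.1 CPM against 360.5, 317.4 and 175.9 CPM. The groups did not overlap for either. Over 5 libraries TOMM40 rose by 0.39 (adjusted p = 0.00535, edgeR) and TOMM20 fell by 0.30 (adjusted p = 0.0209) on the log2 scale. Their transcripts were 63.3% and 40.5% GC. PAM16, a partner of HSPA9 in the motor, had a log2 fold change of 0.62 over 6 libraries and 0.40 over 5, TIMM17A, a channel subunit, had -0.43 and -0.27, and neither was called.

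Of 15 regulators and signals of the mitochondrial stress response, 2 were above, 1 was below and the median was 0.10 over 6 libraries and 0.045 over 5. ATF4, the transcription factor of the integrated stress response, had 480.6, 501.0 and 540.9 CPM under DMSO and 425.3, 418.9 and 429.2 CPM under doxycycline. Here replicate 3 lay with the other doxycycline libraries, and all were below DMSO. ATF4 had a log2 fold change of -0.26 over 6 libraries (SE 0.087, adjusted p = 0.303, edgeR) and -0.27 over 5 (adjusted p = 0.0249). HSF1, the heat shock factor, had 0.46 over 6 libraries and 0.22 over 5 (adjusted p = 0.0448, edgeR), with 63.9% GC. ESRRA, a receptor that acts on genes of mitochondrial metabolism, had 0.47 over 6 libraries and 0.23 over 5 and was called in neither fit.

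The last list joined targets of the ATF4 pathway with chaperones of the cytosol and the endoplasmic reticulum. Of its 15 genes none was above and 5 were below, where 19.7% of all genes were above and 18.9% below. Its median was -0.095 over 6 libraries and -0.23 over 5. With 5 libraries 5 of them were called lower, where 673 of all 20459 genes tested were. These were PSAT1, an enzyme of serine synthesis, MTHFD2, an enzyme of mitochondrial one-carbon metabolism, and ASNS, asparagine synthetase. Also called were CHAC1, which degrades glutathione, and HSPA1B, a cytosolic Hsp70 whose reads can be split with HSPA1A. PSAT1 had 376.3, 348.0 and 382.0 CPM under DMSO and 263.8, 243.1 and 155.3 CPM under doxycycline, a log2 fold change of -0.74 over 6 libraries (SE 0.191, adjusted p = 0.303, edgeR) and -0.54 over 5 (adjusted p = 0.00088). CHAC1 had 25.8, 34.2 and 46.7 CPM against 21.6, 18.8 and 24.4 CPM, and -0.72 over 6 libraries and -0.81 over 5 (adjusted p = 0.0108, edgeR). The other 3 were named after their values were seen. The DMSO libraries differed among themselves in some genes of this response: HSPA5, the Hsp70 of the endoplasmic reticulum, had 156.8, 318.0 and 652.3 CPM in them and DDIT3, which encodes CHOP, 28.6, 47.6 and 86.2 CPM. Under doxycycline HSPA5 ranged from 171.9 to 313.6 CPM. The part of this in the value of CHAC1 was not tested. The transcripts of CHAC1 and HSPA1B were 61.3 and 58.8% GC, and those of PSAT1, MTHFD2 and ASNS 42.5, 41.0 and 42.7% GC. The part of composition in the values of these genes was not tested.

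**Figure D5:**
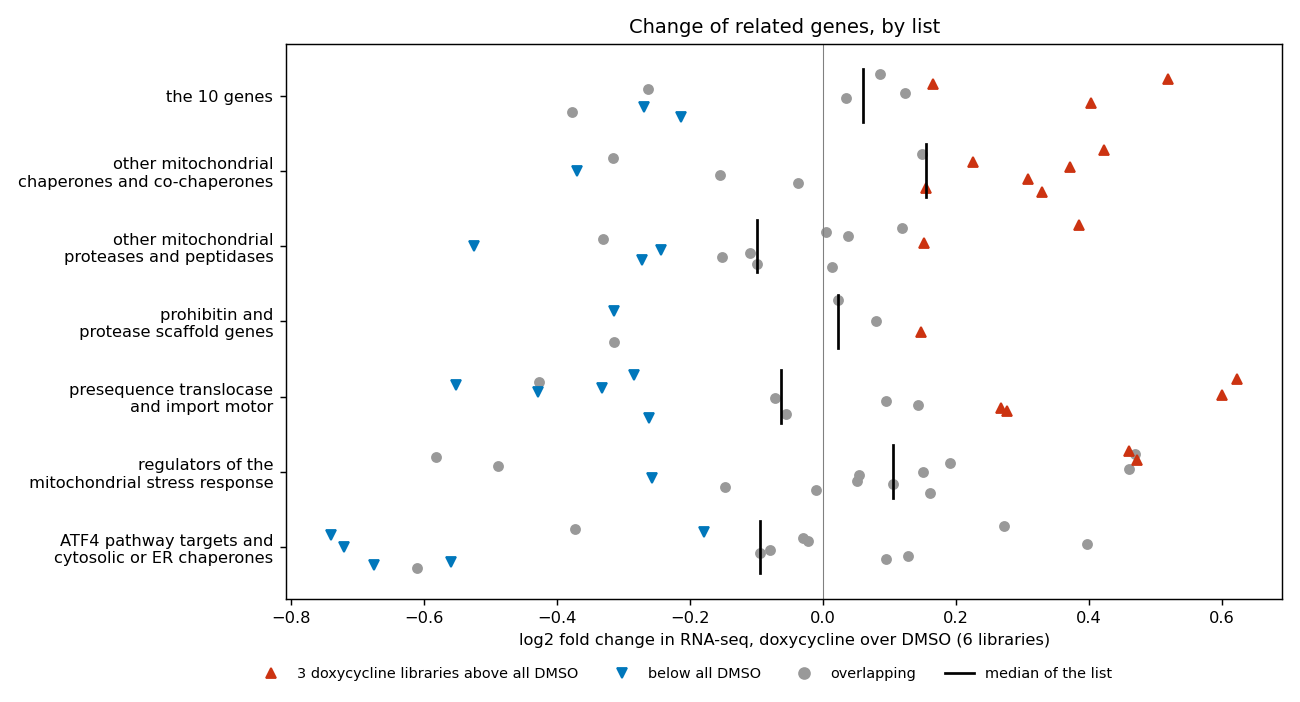
Log2 fold change of doxycycline over DMSO over 6 libraries (horizontal axis) for the 10 genes and the genes of 6 related lists (rows), with upward triangles for genes whose doxycycline libraries were all above DMSO, downward triangles for those all below, grey circles for the others and a black bar at the median of each list. Triangles point both ways in all rows but that of the ATF4 pathway, which holds 5 downward and no upward ones.

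The study compared Ribo-seq with RNA-seq to measure translation efficiency, the ribosome footprints of a gene relative to its RNA. For the 10 genes too few Ribo-seq reads were counted to do so. The 6 Ribo-seq libraries held 24 reads on them in all, against 529168 in the RNA-seq libraries. HSPE1, HSPA9, CLPX and HTRA2 had no Ribo-seq read, and a count of 0 in a library allows up to 3 reads, or 2.99 to 14.3 CPM, counting error only. CLPP had 9 reads, 6 of them in DMSO replicate 3, and YME1L1 had 6, all in doxycycline replicate 2. AFG3L2 and SPG7 had 3 each, LONP1 2 and HSPD1 1. At the share of reads that it took in RNA-seq, HSPD1 would have had 1759 reads, CLPP 188.2 and HSPE1, the lowest, 80.5, all far above the counts seen. The cause was not tested.

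No gene of the 10 reached 10 reads over the Ribo-seq libraries, so none was among the 1334 genes whose translation efficiency was tested. Without that minimum, 6 of them entered the test among 11670 genes, on 1 to 9 Ribo-seq reads each. None was called by edgeR after Benjamini-Hochberg adjustment, with the lowest adjusted p at 0.407. At an unadjusted p under 0.05 there were 2 of the 6. The share of all genes at that threshold was not computed, so this count is not read further. The translation of these genes was therefore not measured here.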

How the data were processed

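RNA-seq and Ribo-seq libraries of 6 samples of 293T cells with inducible 4EBP1-4A were analysed, 12 in all, grouped by the labels. The deposited counts are raw reads per gene, counted by the authors from reads aligned with STAR. The methods name GRCh38 for the alignment and GRCh37 for the annotation, the labels GRCh37 and Ensembl release 75, and the counter's strand setting is not given in the sources used here. The 5.94 to 30.8% of RNA-seq reads and 0.888 to 2.95% of Ribo-seq reads that fell on genes set the library sizes. The other rows (no feature, not unique and the like) stayed out. A deposited table of the authors' own translation efficiency ratios, p-values and dispersions was read for its pairing of gene IDs with symbols only.

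Genes that had 10 or more reads in 3 or more libraries were tested with edgeR 4.0.16 (TMM factors, glmQLFit and glmQLFTest) in R 4.3.3, at a Benjamini-Hochberg adjusted p under 0.05. CPM are TMM-scaled. Translation efficiency was tested as the interaction of assay and treatment, for genes with at least 10 reads in each assay. Pair ratios were tested by exact permutation over libraries. Alternatives were DESeq2 1.42.0 size factors and Wald test, library totals, no minimum, a minimum of 60 reads, the edgeR likelihood ratio test, limma 3.58.1 voom with quality weights, a replicate block, each library left out and, added later, an offset for GC content and length. The genes and lists were chosen with earlier results of these data known. All 10 genes were named, and of each list up to 2 that rose most and 2 that fell most among genes without overlap between the groups. Coordinates, lengths and GC are from GENCODE release 44 on GRCh38, in which 58207 of 58735 gene IDs were found, and promoters from RefSeq on the same build. On simulated counts with 200 changed genes, the 6-library test recovered 0 at 1.25-fold, 12 at 1.5-fold and 133 at 2-fold, and the 5-library test 54, 134 and 175.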

Additional observations from a re-analysis of the deposited data

How the results depend on the processing

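With 6 libraries, no gene of the 10 was called by DESeq2 size factors, library totals, either read minimum, DESeq2's Wald test (1 gene higher and 2 lower among all), the edgeR likelihood ratio test (4 and 8), the replicate block or the GC and length offset. Limma voom with quality weights called 4 of the 10 (3810 and 3724 genes among all). Leaving out 1 library in turn called 0 to 1 of the 10, with 0 to 769 genes higher and 0 to 673 lower, the highest of each without doxycycline replicate 3.

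With 5 libraries, library totals called 1442 genes higher and 338 lower, 81.0% of calls higher against 53.3%, the Wald test 1054 lower, the replicate block 2121 and 2220 with 2 of the 10 (LONP1 and SPG7), and the offset 360 and 437 with 0 of the 10, also with the block. Leaving out a further library called 0 to 1 of the 10, with 2 to 1483 genes higher and 7 to 1549 lower. Deviations of same-numbered samples had r of 0.39, -0.36 and 0.023, and those of differently numbered samples -0.45 to 0.47. These values cannot decide whether the numbers mark pairs. With DMSO replicate 1, doxycycline replicates 1 and 2 gave 0.39 and 0.41 and replicate 3, which stood apart, gave -0.45. The main fits took no pairs, and the replicate block is the alternative that does.

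Signs turned in these cases. CLPP was -0.0068 without a read minimum. Under the offset with 6 libraries, HSPD1 was 0.021, LONP1 -0.010, CLPP -0.15 and HTRA2 -0.15, and with the replicate block 0.021, -0.011, -0.15 and -0.15. With 5 libraries, HSPD1 was 0.019, HSPE1 0.055, LONP1 -0.049, CLPP -0.068, YME1L1 0.0047 and HTRA2 -0.064, and with the replicate block 0.029, 0.059, -0.035, -0.071, 0.023 and -0.035. With 5 libraries, leaving out a further library gave CLPX -0.0072 (without doxycycline replicate 1) to 0.075, and CLPP -0.00033 to 0.048 and HTRA2 -0.0042 to 0.10 (both lowest without doxycycline replicate 2). The cause was not tested. None of the 10 genes entered the translation efficiency test under any setting but that without a read minimum, which let in 6.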
